A study of Homo sapiens with 6 samples.

Results

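The G2/M and mitosis genes examined here are 34 transcripts whose proteins take a cell from G2 through division. They were given as a list of gene symbols and found through the platform annotation. All 34 had a named probe set, each of them 1, among the 21448 probe sets (17687 named genes) of the table. All 34 also lay above the limit of 4.44 on the log2 scale, the 25th percentile of the mean signal, below which probe sets were left out as dim, so every member was tested. The signals of different probe sets are not comparable as levels, and only differences between arrays of the same probe set are read here.

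The samples were Jurkat cells, a long-established line from a human acute T-cell leukaemia. The 3 CXCL12 samples received the chemokine CXCL12, a ligand of the receptor CXCR4, at 100 ng/ml for 15 min, and the 3 untreated samples received none. Both groups had been grown with 10% serum and then kept without serum for 90 min, so serum withdrawal is shared by the untreated arrays. The labels call the samples biological replicates but do not say whether they were separate cultures, so a p-value covers only the spread among these 6 samples, part of which may be technical. The table holds 1 log2 signal per probe set and array. Median signals per array ran from 6.18 to 6.22. Untreated replicate 1 stood apart, with a mean correlation of 0.982 with the other arrays over the 16086 probe sets tested, against 0.987 to 0.989 for the rest. Many of the changes that depend on it are therefore also given without it. Of 11 T-cell markers listed, 10 had a probe set, and all 10 lay above the dim limit. Of 14 measured markers of B, myeloid, erythroid, epithelial and fibroblast cells, 5 were dim, among them MS4A1, LYZ, EPCAM and CDH1, and the other 9, among them CD79A and COL1A2, were not. The log2 signals of these 14 markers summed to between 72.1 and 73.1 in CXCL12 arrays and between 72.9 and 73.4 in untreated arrays. Opposite shifts cancel in such a sum. KRT18 averaged 4.86 in CXCL12 and 4.55 in untreated arrays (limma unadjusted p under 0.05, adjusted p = 0.996), and the dim EPCAM 3.41 and 3.76. EGR1, the transcription factor with the smallest p of all probe sets, had 8.13, 7.80 and 7.98 in CXCL12 arrays, against 5.94, 5.91 and 6.12 in untreated arrays. Its log2 change was 1.98 (limma adjusted p = 4.52e-05), so these arrays did register a response at 15 min.

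In dividing cells the kinase CDK1, joined to A- and B-type cyclins, drives entry into mitosis, and Aurora and Polo kinases build the spindle. The spindle checkpoint holds the anaphase-promoting complex (APC/C) in check until every kinetochore is attached. Many of the genes are expressed most around G2 and M. In an unsynchronised line such as Jurkat their bulk signal therefore depends in part on the share of cells in these phases. Cells in other phases can add to it, and the phases were not separated. In bulk samples, fewer cells in G2 and M and less RNA per such cell cannot be told apart.

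No G2/M member was found to change with CXCL12 beyond the spread between arrays. After adjustment over all probe sets 0 of 34 passed limma's test at 0.05, where 0.0124% of all probe sets passed. At an unadjusted limma p under 0.05 it was also 0 of 34, against a background of 4.73% (2.72% higher and 2.01% lower). The arrays of the groups overlapped for every member, beside 9.54% of all probe sets without overlap. The background shares of 4.73% and 9.54% are about what 3 arrays a group would give with no change. The changes (CXCL12 minus untreated, log2) ran from -0.17 for HMMR to 0.29 for CDK1, with limma adjusted p from 0.996 to 0.999. Their median was -0.05, beside a median of 0.00228 over all probe sets tested.

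For most members limma's 95% interval, taken for each member singly, left room only for changes under 1.5-fold. Smaller changes could have been missed, and whether the exposure was long enough for larger ones to arise was not tested. The 95% interval lay within a 1.5-fold change in either direction for 32 of 34 members (94.1%), close to the 89.9% of all probe sets. CDK1 and UBE2C were the exceptions, with upper bounds of 1.57-fold and 1.65-fold. Over the fits with 1 array left out, the count of members within 1.5-fold lay between 24 and 34. The limma fit draws the spread of each probe set towards that of all of them. For members that vary widely, such as UBE2C, the interval is thus narrower than their own arrays alone would give. This holds also for BIRC5 and CENPE (pooled SD 0.366 and 0.380), which count among the 32. The count therefore rests on this pooling, and intervals from each member's own spread were not computed. For steady ones, such as PLK1, it is wider. The half-width of a member's interval, which is not adjusted for the number of probe sets, ran from 0.25 to 0.47 on the log2 scale, with a median of 0.29 or 1.22-fold. Every member's change lay within its own half-width.

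The sign of the change was negative for 24 members and positive for 10, where 49.3% of all probe sets had a negative sign. The members share arrays and can vary together, so this count is a description. It was 25 with median centring, where 55.3% of all probe sets had a negative sign. It was 24 with cyclic loess (50.1% of all) and 23 with quantile normalization again (49.8% of all). Leaving out CXCL12 replicate 3 gave 20, and leaving out untreated replicate 1 gave 22, with 51.0% of all probe sets negative in each. The signs of single members were less steady than this count. Without untreated replicate 1 they turned for 10 members (CDC25C, BIRC5, CDC20, UBE2C, CENPA, CENPE, NUF2, KIF18A, ASPM and DLGAP5), and for 13 more the size of the change moved by over 1.5 times. With each of the 6 arrays left out in turn, the range of the change crossed 0 for 16 of 34 members. Averaged over the members and set against the untreated arrays, CXCL12 replicates 1, 2 and 3 lay at -0.01, -0.03 and -0.03. Untreated replicates 1, 2 and 3 lay at -0.01, -0.01 and 0.03. All 6 arrays thus lay within a few hundredths of a log2 unit of each other.

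**Figure D1:**
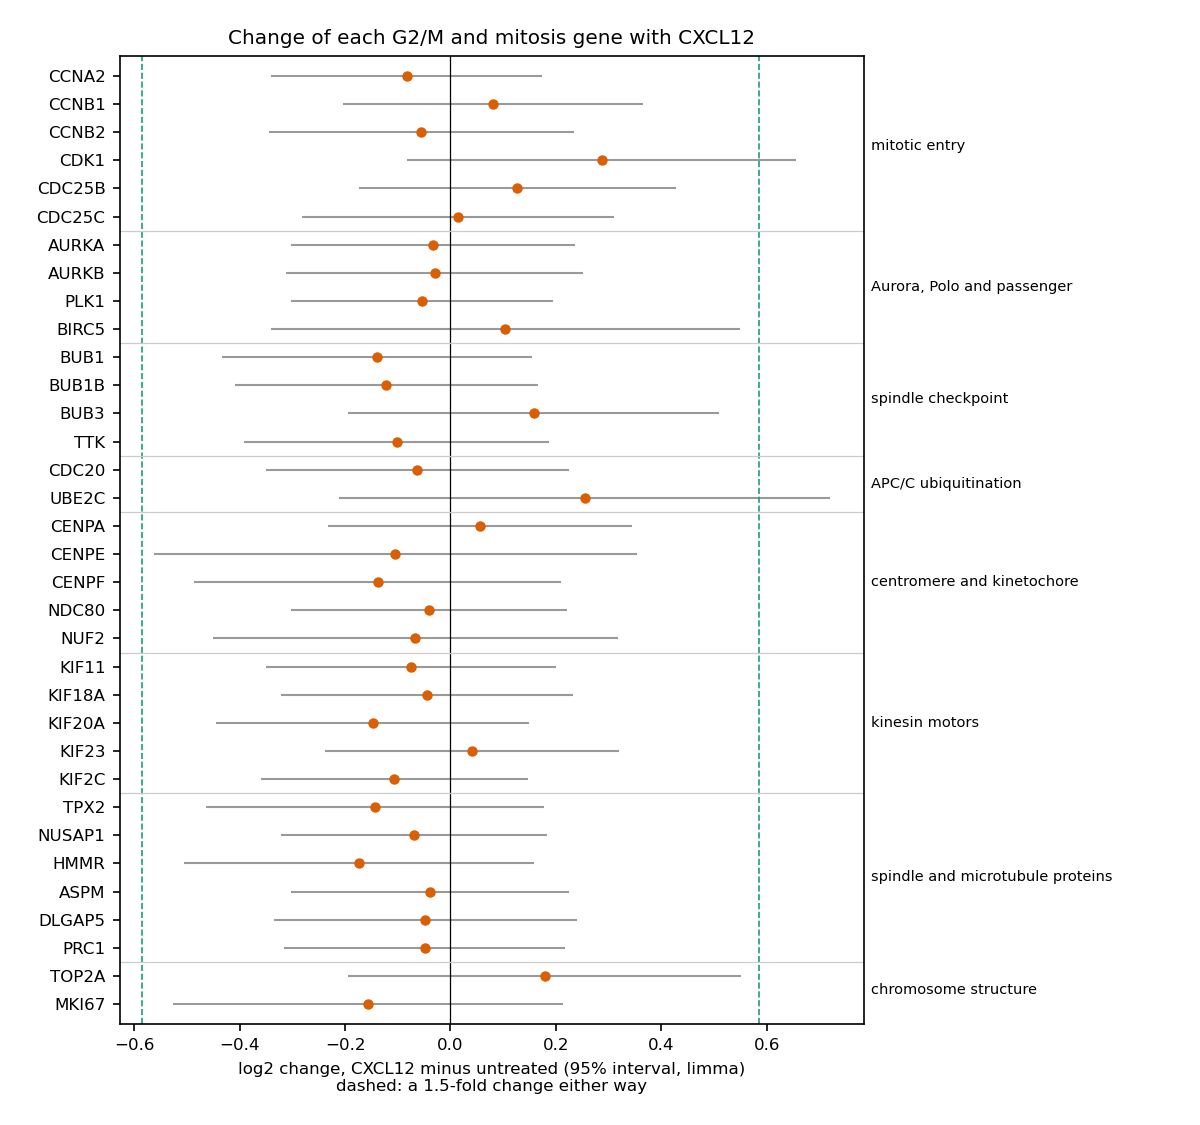
Log2 change (CXCL12 minus untreated, horizontal axis) of the 34 G2/M and mitosis genes, ordered by role, with limma's 95% interval from 3 arrays a group. Dashed lines mark a 1.5-fold change either way: every interval includes 0, and only those of CDK1 and UBE2C reach past a dashed line.

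Promoter sequence was read as a further feature. The motifs searched are known from genes of this phase, so a high share among the members could be foreseen. Many genes of this phase carry a cell cycle genes homology region (CHR), which the MuvB complex binds, downstream of CCAAT boxes, which bind the factor NF-Y. A CHR here means the letters TTTGAA or TTTAAA, and variants of them were not searched. RefSeq promoter windows (GRCh38.p14, 250 bases before to 50 after each annotated start, both strands searched) matched 28 of the 34 members by symbol, all but AURKA, BIRC5, BUB3, TPX2, TTK and UBE2C. A CHR was found for 25 of these 28 genes (89.3%), against 27.9% of all genes in the table, and CCAAT for 23 (82.1%), against 39.7%. Both motifs occurred in 1 window for 19 genes (67.9%), against 11.2% of all genes. Genes with several windows have more chances of a match. Counted by window, the CHR was in 27 of 36, against 24.0% of all windows.

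Many matches stood close to the start of transcription. Of the 24 members with a single window, 18 had a CHR starting between 70 bases upstream of the annotated start and the start itself, against 6.61% of all 22114 single-window genes. This stretch was chosen after the positions were seen. The E2F-type letters TTTNGCGC (N is any base) were in the windows of 2 members, CDK1 and NUSAP1. The same count was made for the other gene lists described further on. A CHR was found for 67.9% of 28 other G2/M transcripts, 60.0% of 20 condensin and cohesin genes and 56.3% of 16 cytokinesis genes. It was found for 7 of 14 promoter regulators, 11 of 22 G2/M kinases and phosphatases, 40.7% of 27 further kinetochore genes and 35.3% of 17 APC/C genes. G1/S genes, those of DNA replication, had the lowest share of these lists, 6 of 32 genes (18.8%), but 14 of 32 (43.8%) held TTTNGCGC, against 2.17% of all genes. CCAAT was found for 68.8% of the G1/S genes and 81.3% of the cytokinesis genes, beside the 82.1% of the members. No array value bears on binding at these sites, and a match is not a site of action.

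The stretches below show the layout in 8 members, each as the 150 bases before the annotated start, 5′ to 3′ on the gene's strand. CHR and CCAAT letters, or the reverse complement of either, are in capitals. CCNB1, CCNB2 and PLK1 show the classical order. CDC20 has its CHR between CCAAT boxes, KIF20A has its boxes on the other strand, HMMR has repeated letters, MKI67 has a CHR that shares a base with a CCAAT box, and BUB1 has a window without a CHR.
CCNB1, chr5:69167000-69167149, plus strand: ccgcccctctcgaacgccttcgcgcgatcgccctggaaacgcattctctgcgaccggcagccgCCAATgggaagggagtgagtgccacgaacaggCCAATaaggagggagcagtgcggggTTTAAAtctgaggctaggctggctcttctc
CCNB2, chr15:59104996-59105145, plus strand: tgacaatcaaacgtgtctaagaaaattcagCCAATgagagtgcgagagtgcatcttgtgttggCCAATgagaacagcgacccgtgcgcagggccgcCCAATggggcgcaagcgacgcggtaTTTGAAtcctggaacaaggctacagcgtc
PLK1, chr16:23678739-23678888, plus strand: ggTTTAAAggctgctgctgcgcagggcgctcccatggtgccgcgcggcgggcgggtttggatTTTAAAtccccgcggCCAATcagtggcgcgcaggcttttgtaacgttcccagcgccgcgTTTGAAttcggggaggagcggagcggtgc
CDC20, chr1:43358831-43358980, plus strand: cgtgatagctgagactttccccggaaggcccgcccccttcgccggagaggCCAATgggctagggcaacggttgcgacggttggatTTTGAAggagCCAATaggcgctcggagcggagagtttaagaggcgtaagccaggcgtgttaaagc
KIF20A, chr5:138178962-138179111, plus strand: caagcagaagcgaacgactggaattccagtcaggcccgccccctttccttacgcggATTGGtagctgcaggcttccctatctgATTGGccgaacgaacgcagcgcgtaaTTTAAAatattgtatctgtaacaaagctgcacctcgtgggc
HMMR, chr5:163460482-163460631, plus strand: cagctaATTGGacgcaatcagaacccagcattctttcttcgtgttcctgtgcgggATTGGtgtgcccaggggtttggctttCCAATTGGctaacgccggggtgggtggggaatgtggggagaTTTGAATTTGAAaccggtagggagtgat
MKI67, chr10:128126424-128126573, minus strand: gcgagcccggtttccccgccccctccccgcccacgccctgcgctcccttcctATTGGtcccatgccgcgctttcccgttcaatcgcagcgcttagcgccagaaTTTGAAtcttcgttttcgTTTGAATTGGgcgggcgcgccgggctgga
BUB1, chr2:110678064-110678213, minus strand: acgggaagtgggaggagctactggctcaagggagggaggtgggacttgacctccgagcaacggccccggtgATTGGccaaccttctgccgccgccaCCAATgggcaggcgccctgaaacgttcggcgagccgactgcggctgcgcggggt

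In CCNB2 the 3 CCAAT boxes nearest the start began 33 bases apart from each other and the CHR followed 29 bases before the start. CCNB1 had its pair of boxes 32 bases apart and its CHR at 30 bases before the start. PLK1 had 1 CCAAT box and a TTTGAA at 29 bases before the start, with a pair of TTTAAA matches further upstream. In HMMR adjoining copies of TTTGAA stood at 28 and 22 bases before the start, and 2 of its CCAAT matches overlapped on opposite strands. BUB1, with CCAAT boxes at 79 and 54 bases before the start, had neither TTTGAA nor TTTAAA in its window. CCNA2 and AURKB were the other members with a window and no CHR match.

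**Figure D2:**
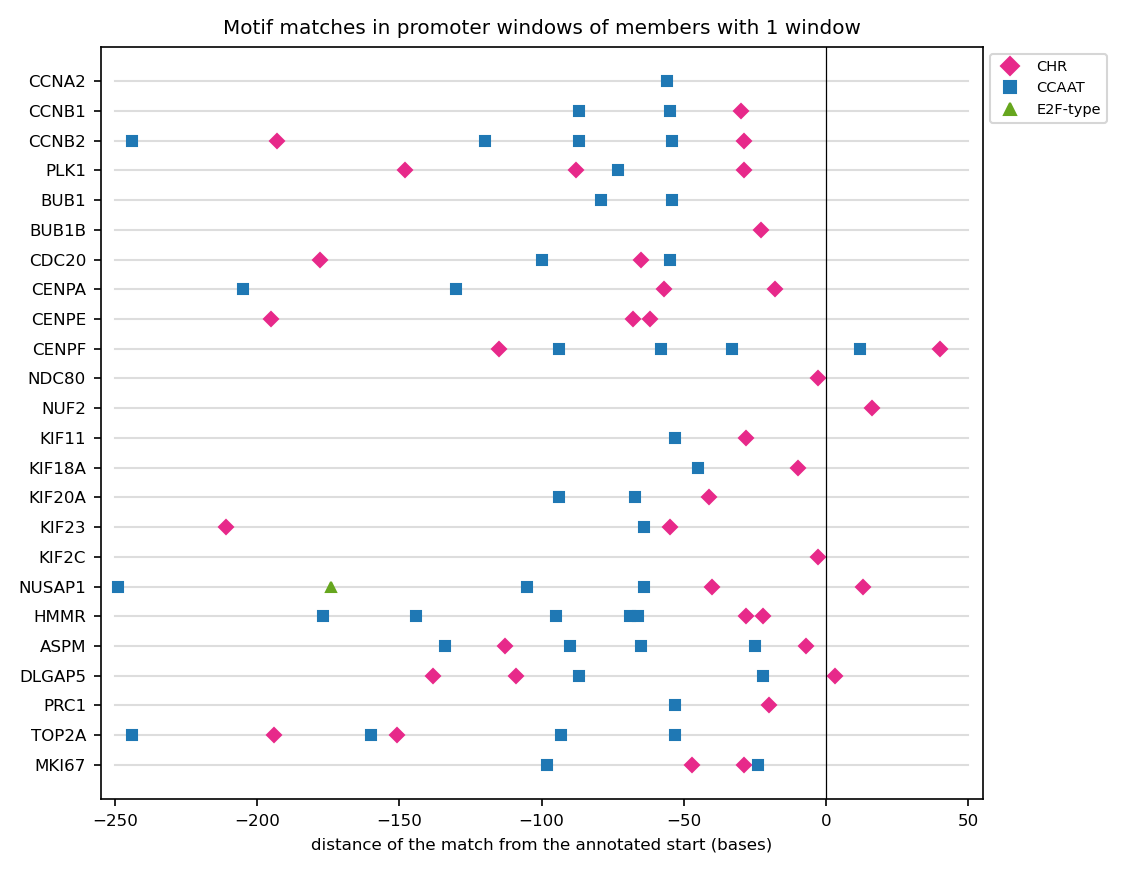
Matches of the CHR (diamonds), CCAAT (squares) and E2F-type letters (triangles) in the promoter windows of the 24 members with 1 window. The horizontal axis is the distance in bases of the match's leftmost base from the annotated start. In 18 of the 24 lines a CHR starts within the 70 bases before the annotated start.

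Mitotic entry genes held the member with the smallest p. CDK1, the kinase whose activation starts mitosis, had log2 signals of 9.94, 9.55 and 9.94 in CXCL12 arrays, against 9.25, 9.46 and 9.86 in untreated arrays. CXCL12 replicate 2 lay below untreated replicate 3, so the groups overlapped. Its mean was 9.81 ± 0.22 in CXCL12 and 9.52 ± 0.31 in untreated arrays (SD, n = 3 each). The log2 change was 0.29 (95% interval -0.08 to 0.66, limma unadjusted p = 0.116). The change was 0.15 without untreated replicate 1. It was 0.41 without CXCL12 replicate 2 (limma unadjusted p = 0.0382) and 0.46 without untreated replicate 3 (limma unadjusted p = 0.0168), with adjusted p of 0.788 and 0.917. 1 array therefore sets whether CDK1 lies at the edge of the unadjusted threshold.

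The cyclins that activate CDK1 did not share its value. CCNB1, the main mitotic cyclin, had 9.32, 9.06 and 9.38 in CXCL12 arrays, against 9.05, 9.28 and 9.18 in untreated arrays, a log2 change of 0.08 (95% interval -0.20 to 0.37), and 0.02 without untreated replicate 1. CCNB2, a related B-type cyclin, had a change of -0.06 and CCNA2, the cyclin of S phase and G2, -0.08. CXCL12 replicate 2 was the lowest of the 6 arrays for CCNB2, at 8.85. CDC25B and CDC25C, phosphatases that remove the inhibitory phosphates of CDK1, had changes of 0.13 and 0.01, or 0.06 and -0.11 without untreated replicate 1. CDC25B had 9.10, 9.22 and 9.19 in CXCL12 arrays, against 8.90, 9.32 and 8.91 in untreated arrays, and untreated replicate 2 was the highest of the 6. Without that array the change of CDC25B was 0.26. Of the 6 entry genes 4 had a positive and 2 a negative sign.

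The kinases that build the spindle had changes between -0.05 and -0.03. PLK1, the Polo-like kinase of centrosome maturation and mitotic exit, had 11.05, 10.96 and 10.97 in CXCL12 arrays, against 11.00, 11.11 and 11.04 in untreated arrays. Its pooled SD within groups, 0.051, was the smallest of the 34 members, and its log2 change was -0.05 (95% interval -0.30 to 0.19). AURKA, the centrosomal Aurora kinase, had 9.97, 9.72 and 9.69 in CXCL12 arrays, against 9.87, 9.76 and 9.85 in untreated arrays. AURKB, the Aurora kinase of the chromosomal passenger complex, had 9.13, 9.04 and 8.91 in CXCL12 arrays, against 8.96, 9.24 and 8.97 in untreated arrays. Both had a log2 change of -0.03, with arrays of the groups interleaved.

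BIRC5 (survivin), which tethers AURKB to centromeres, varied far more than its partner. It had 8.86, 8.17 and 8.67 in CXCL12 arrays, against 8.03, 8.73 and 8.63 in untreated arrays. CXCL12 replicate 2 departed by -0.59 from the mean of its group's other arrays and untreated replicate 1 by -0.65 from that of its own. The log2 change was 0.10 (95% interval -0.34 to 0.55), and -0.11 without untreated replicate 1.

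Among spindle checkpoint genes BUB3, the WD-repeat protein that brings BUB1 and BUB1B to kinetochores, differed in sign from both. BUB3 had 11.26, 10.75 and 11.25 in CXCL12 arrays, against 10.71, 11.10 and 10.98 in untreated arrays, a log2 change of 0.16 (95% interval -0.19 to 0.51). The size of this change rested on single arrays, at 0.05 without untreated replicate 1 and 0.33 without CXCL12 replicate 2. BUB1, a checkpoint kinase that also marks centromeric chromatin, had 8.85, 9.05 and 8.81 in CXCL12 arrays, against 8.95, 8.92 and 9.26 in untreated arrays. BUB1B (BUBR1), a part of the complex that inhibits the APC/C, had 9.22, 9.61 and 9.31 in CXCL12 arrays, against 9.56, 9.47 and 9.47 in untreated arrays. The changes of BUB1 and BUB1B were -0.14 and -0.12, or -0.18 and -0.09 without untreated replicate 1. In both the highest CXCL12 array was replicate 2, the array in which BUB3 was lowest within its group. TTK (MPS1), the kinase at the head of the checkpoint, had a change of -0.10, or -0.05 without untreated replicate 1.

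The APC/C is switched on by CDC20 and loads ubiquitin from the enzyme UBE2C. CDC20 had 10.10, 10.11 and 9.89 in CXCL12 arrays, against 10.22, 10.16 and 9.90 in untreated arrays. Its log2 change was -0.06 (95% interval -0.35 to 0.22) and the groups overlapped. UBE2C had 8.34, 7.76 and 8.26 in CXCL12 arrays, against 7.34, 8.14 and 8.11 in untreated arrays. Its change of 0.25 (95% interval -0.21 to 0.72, limma unadjusted p = 0.257) was -0.01 without the low untreated replicate 1. UBE2C also had the largest pooled SD of the members, 0.389.

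Centromere and kinetochore genes had 4 negative signs and 1 positive. CENPA, the histone H3 variant that marks centromeres, had 0.06, and NDC80 and NUF2, partners in the complex that grips microtubules, had -0.04 and -0.07. CENPF, a large kinetochore and nuclear matrix protein, had -0.14, or -0.06 without untreated replicate 1. CENPE, the kinesin that moves chromosomes to the spindle equator, had 8.41, 8.82 and 8.40 in CXCL12 arrays, against 9.20, 8.30 and 8.44 in untreated arrays. Untreated replicate 1 was the highest array, and CXCL12 replicate 2 came next. The change of CENPE was -0.10 (95% interval -0.56 to 0.35), and 0.17 without untreated replicate 1.

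Kinesin motors had changes between -0.15 and 0.04. KIF20A (MKLP2), which carries the passenger complex to the midzone, had 7.84, 8.15 and 7.80 in CXCL12 arrays, against 7.95, 8.22 and 8.05 in untreated arrays. CXCL12 replicate 2 lay inside the untreated range while the other CXCL12 arrays lay below it. The log2 change of KIF20A was -0.15 (95% interval -0.44 to 0.15). It was -0.21 without untreated replicate 1 and -0.26 without CXCL12 replicate 2. KIF2C (MCAK), a microtubule depolymerase, had -0.11, KIF11 (Eg5), which pushes spindle poles apart, -0.08, and KIF18A, which dampens chromosome oscillation, -0.04. KIF23 (MKLP1), a part of the midzone complex centralspindlin, had 0.04.

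All 6 spindle and microtubule genes had a negative sign, with changes between -0.17 and -0.04. HMMR, a spindle assembly protein that also acts as a hyaluronan receptor, had 7.73, 7.71 and 7.67 in CXCL12 arrays, against 8.16, 7.54 and 7.94 in untreated arrays. The CXCL12 arrays of HMMR spanned 0.06, all inside an untreated range of 0.62. Its change was -0.17 (95% interval -0.51 to 0.16), -0.03 without untreated replicate 1 and -0.34 without untreated replicate 2 (limma unadjusted p = 0.0309, adjusted p = 0.904). TPX2, the activator of AURKA on the spindle, had 9.11, 9.57 and 9.16 in CXCL12 arrays, against 9.59, 9.33 and 9.35 in untreated arrays, a change of -0.14. It was -0.06 without untreated replicate 1 and -0.29 without CXCL12 replicate 2. NUSAP1, DLGAP5, PRC1 and ASPM, which organise spindle microtubules, had -0.07, -0.05, -0.05 and -0.04. Without untreated replicate 1 the signs of ASPM and DLGAP5 turned to 0.01 and 0.03.

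The chromosome proteins TOP2A and MKI67, widely used as proliferation markers, had opposite signs. TOP2A, the topoisomerase that untangles sister DNA, had 10.14, 9.76 and 10.25 in CXCL12 arrays, against 9.54, 9.99 and 10.08 in untreated arrays. MKI67 (Ki-67), which coats mitotic chromosomes, had 9.72, 10.24 and 9.84 in CXCL12 arrays, against 10.37, 10.09 and 9.82 in untreated arrays. TOP2A was low and MKI67 high in CXCL12 replicate 2 and untreated replicate 1. Their log2 changes were 0.18 and -0.16, and without untreated replicate 1 they were 0.01 and -0.02. Without CXCL12 replicate 2 they were 0.32 and -0.31.

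**Figure D3:**
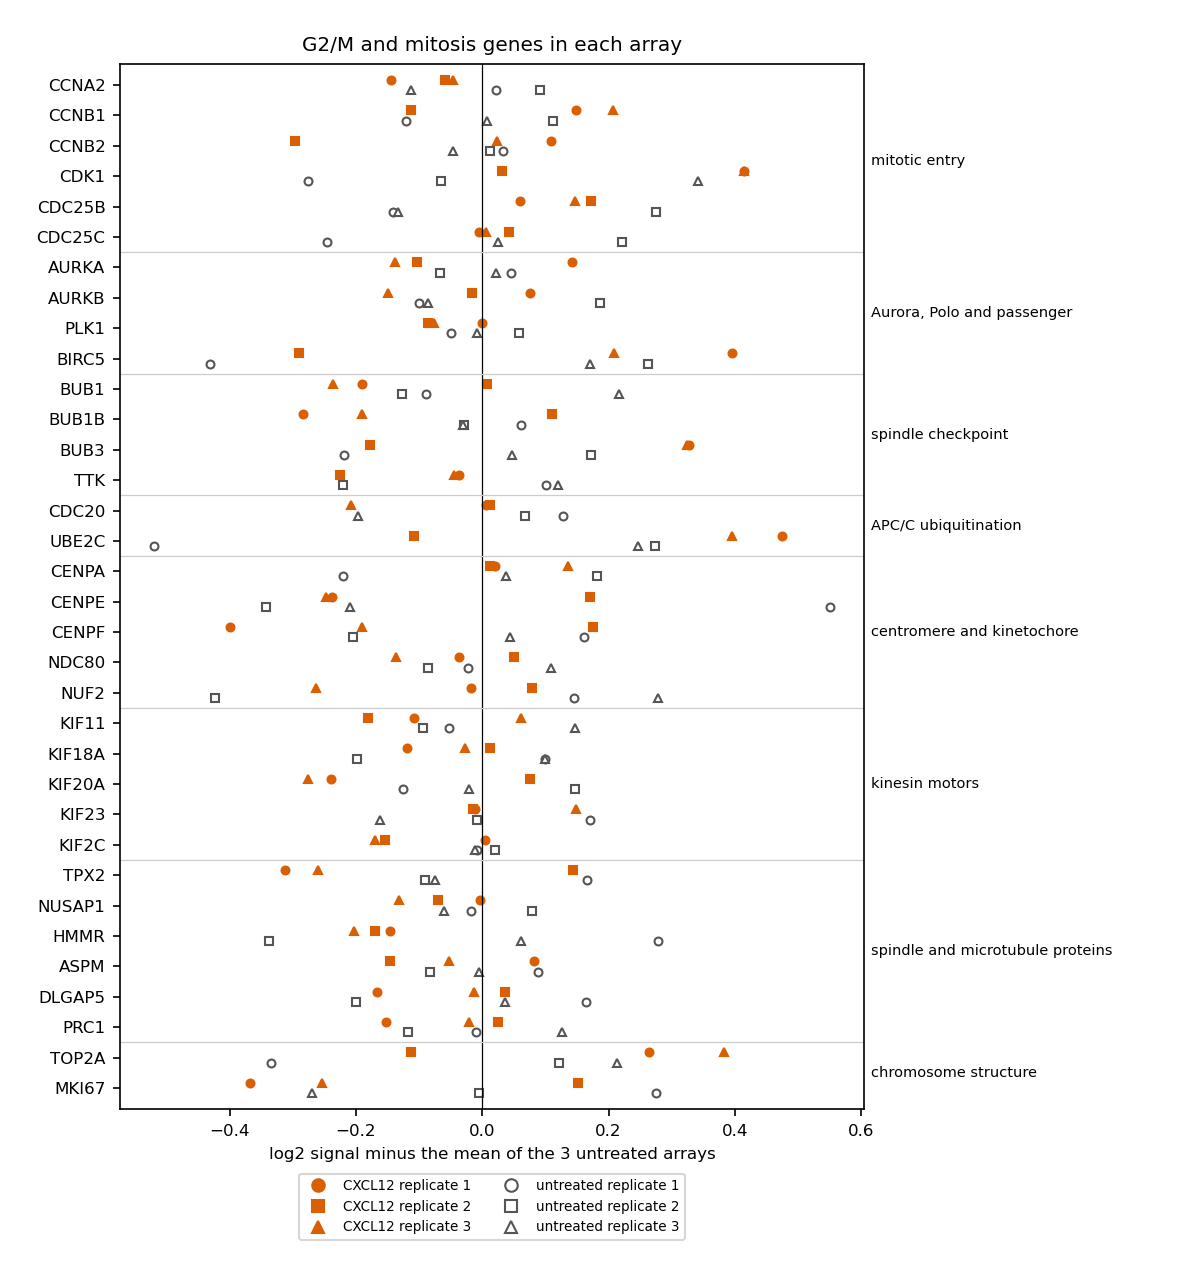
Log2 signal of each of the 34 members in each of the 6 arrays, as the difference from the mean of the untreated arrays (horizontal axis). Filled orange symbols are CXCL12 arrays, open grey symbols untreated arrays, and the shape gives the replicate. The groups overlap in every line. UBE2C, BIRC5, CDK1, BUB3 and TOP2A have CXCL12 replicate 2 and untreated replicate 1 on the left of the other arrays of their group, CENPE and MKI67 on the right.

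The same pair of arrays stood out for several of these members. Over all probe sets tested, the deviations of CXCL12 replicate 2 and untreated replicate 1 from their group means correlated at r = 0.28. The tendency thus covers the arrays and not the members alone. This r was the largest of the pairs across the groups, and the others ran from -0.26 to 0.19. Deviations sum to 0 within a group, so these values are not independent of each other. CXCL12 replicate 2 and untreated replicate 1 departed from the rest of their own group in the same direction for 22 of 34 members (64.7%), near the 59.5% of all probe sets. Both departed by over 0.25 on the log2 scale in the same direction for 7 members (20.6%), against 9.16% of all probe sets. Both were low for CDK1, BIRC5, BUB3, UBE2C and TOP2A, and both high for CENPE and MKI67. UBE2C departed by -0.54 in CXCL12 replicate 2 and by -0.78 in untreated replicate 1, and CENPE by 0.41 and 0.83. The pair of arrays and the limit of 0.25 were chosen after the values were seen. Untreated replicate 1 was the highest or lowest of the 6 arrays for 18 members (52.9%), near its 49.2% over all probe sets. RNA quality and cell cycle stage of the samples were not measured, and the part of either in this pattern was not tested.

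**Figure D4:**
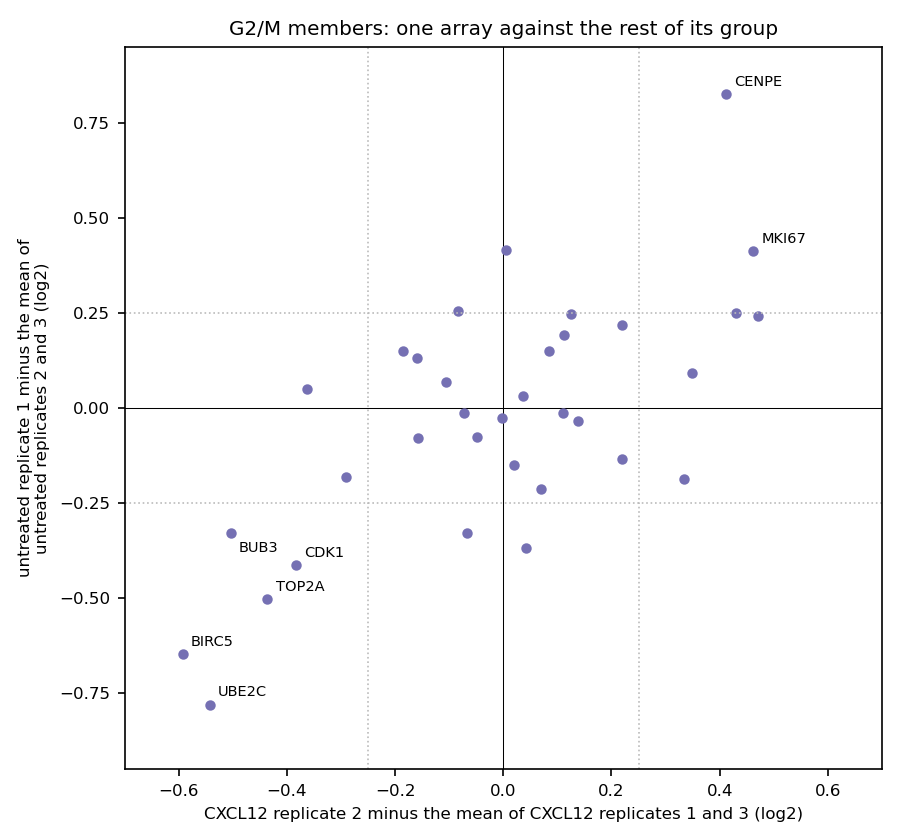
Each point is a G2/M member. The horizontal axis is CXCL12 replicate 2 minus the mean of the other CXCL12 arrays, the vertical axis untreated replicate 1 minus the mean of the other untreated arrays (log2), and dotted lines mark 0.25. The 7 named members lie beyond 0.25 on both axes, 5 at the lower left and 2 at the upper right.

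Genes around the members were read from further lists, none with a gene past limma's adjusted threshold. The factors that control this class of promoter, MuvB and its partners, FOXM1 and NF-Y, had a median log2 change of -0.09 over 18 genes, with 12 negative and 6 positive. MYBL1, a MYB family factor, had 4.76, 4.81 and 4.99 in CXCL12 arrays, against 4.99, 5.25 and 5.23 in untreated arrays. The CXCL12 arrays were all below the lowest untreated array, replicate 3 only just. The signals were close to the dim limit of 4.44, and the change of -0.30 did not pass (limma unadjusted p = 0.0353, adjusted p = 0.996). LIN54, the MuvB subunit that contacts the CHR, had 6.37, 6.18 and 6.69 in CXCL12 arrays, against 6.56, 6.89 and 6.68 in untreated arrays. Its change was -0.29 (95% interval -0.62 to 0.04, limma unadjusted p = 0.0767), or -0.37 without untreated replicate 1 (limma unadjusted p = 0.0403). That of MYBL1 was -0.38 without this array (limma unadjusted p = 0.0113). Both genes were named for having the smallest p of the 18.

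Subunits and partners of the APC/C had 8 positive and 9 negative signs among 17 genes, with a median of -0.03. ANAPC2, its cullin subunit, had -0.18, with 7.95, 7.94 and 7.89 in CXCL12 arrays, against 8.08, 8.10 and 8.14 in untreated arrays (limma unadjusted p = 0.135). ANAPC13, a small subunit, had 0.15, or 0.22 without untreated replicate 1. Among 26 measured G2/M kinases and phosphatases the median was -0.01. PPP2R5A, a regulatory subunit of the phosphatase PP2A, had 0.24, and the kinase STK38 had -0.24. Condensin and cohesin genes had a median of 0.00456 over 21 genes, with -0.21 for the cohesin subunit SMC1A and 0.17 for PDS5B, which regulates cohesin, or 0.08 without untreated replicate 1.

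Further kinetochore genes had a median of 0.00244 over 31 genes. SPDL1 (spindly), which recruits dynein to kinetochores, had 7.81, 8.14 and 7.59 in CXCL12 arrays, against 8.47, 8.15 and 8.01 in untreated arrays. Its groups overlapped, and the change of -0.37 (limma unadjusted p = 0.0454, adjusted p = 0.996) was -0.24 without untreated replicate 1. KNTC1, a part of the same recruitment pathway, had 0.18, or 0.11 without it. Cytokinesis genes had a median of -0.01 over 15 genes, with 0.21 for MYH10, a non-muscle myosin, and -0.28 for CEP55, an abscission protein. Without untreated replicate 1 they were 0.11 and -0.06. Other G2/M transcripts had the opposite balance to the members, 18 positive and 10 negative of 28, with a median of 0.05. They held CKAP2, a spindle protein, at -0.28 and PIMREG at 0.22, or -0.34 and 0.13 without untreated replicate 1. G1/S genes had a median of -0.03 over 35 genes, with 0.33 for CCNE1, the cyclin of S phase entry, and -0.20 for CHAF1B, a histone chaperone subunit. Without untreated replicate 1 they were 0.10 and -0.12. Each of these lists, and the members as a whole, held both signs. Their medians lay between the quartiles of all probe sets, -0.0925 and 0.0998, but for the promoter regulators, whose median was -0.0934. Whether any list differs from the members was not tested.

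**Figure D5:**
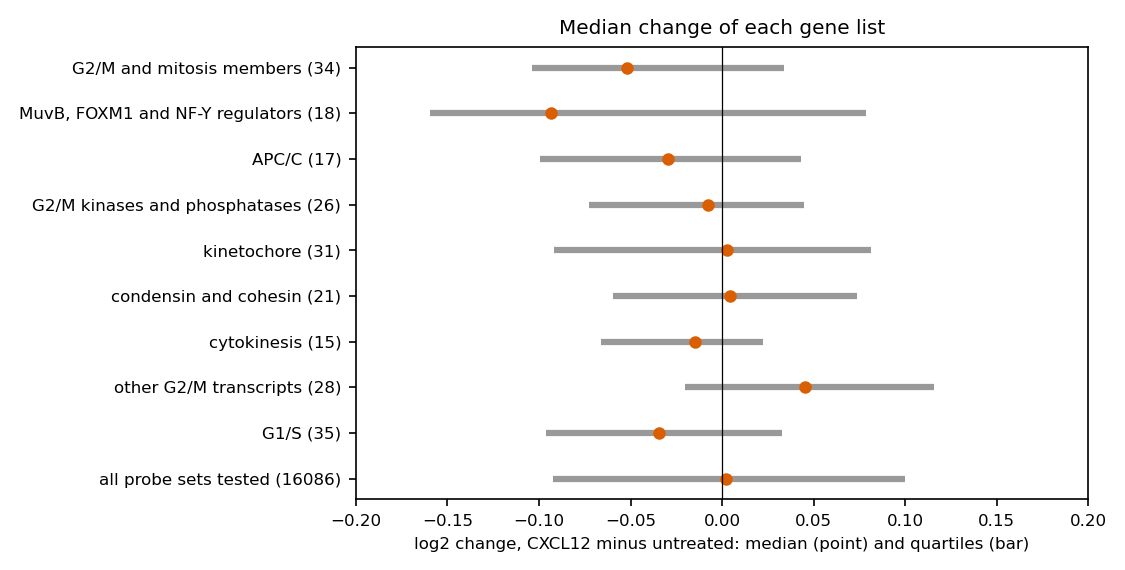
Median (point) and quartiles (bar) of the log2 change, CXCL12 minus untreated, for the members, the other lists and all probe sets tested, with the number of genes or probe sets in brackets. All medians lie within 0.1 of 0, and the bar of every list spans 0.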

How the data were processed

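RNA from 3 CXCL12 and 3 untreated samples of Jurkat cells was measured on Affymetrix arrays, 1 per sample. The deposited values are log2 signals; the submitters' processing notes name RMA and the Transcriptome Analysis Console, without versions or settings. The scale was taken as log2 from the range of the values. Gene names came from the platform annotation, which can be old.

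Dim probe sets, those under the 25th percentile of the mean, were left out. The remaining 16086 entered a two-sided limma fit (version 3.58.1, R 4.3.3) by lmFit and eBayes without covariates, with Benjamini-Hochberg adjustment over all of them. The fit was tested on simulated data with independent noise and no outlying array. That test therefore does not bear on the departures of untreated replicate 1 and CXCL12 replicate 2. The number of arrays limits the precision. Members and lists were chosen with earlier results of these data known. Array values are given for members among the 6 smallest p of each direction and 10 core genes, with other members added as examples, and each further list gives its 2 smallest p. Deviations of same-numbered arrays correlated at -0.19, -0.11 and 0.11, so replicate numbers were not taken as pairs. Alternatives changed filter, scaling, weights, prior, block, probe set choice and arrays.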

Additional observations from a re-analysis of the deposited data

How the results depend on the processing

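None of the 34 members passed the adjusted threshold in 15 other settings or in the fit without untreated replicate 1 and CXCL12 replicate 2, which was added after seeing the data; the smallest limma adjusted p was 0.667. The count of members with an unadjusted p under 0.05, which was 0, was 0 to 1 over the fits that left out 1 array each and 1 in the added fit (KIF20A, -0.32). With the replicate block that count was 0 and the probe sets past the threshold numbered 2; the median change, -0.0518, cannot move under the block, since it leaves the group means of a balanced design as they are. In all, 5 of the 16 settings, the block among them, leave every member's change as it is. The median change of the members was -0.0288 with cyclic loess and -0.0262 with quantile normalization again, and between -0.0703 and -0.0355 over the fits with 1 array left out. Probe sets past the adjusted threshold numbered 4 with array weights, 1 with cyclic loess, 1 with median centring and 1 with no filter, and between 1 and 2 with 1 array left out. With 1 array left out the range of the change crossed 0 for 16 of 34 members: CCNB2, CDC25C, AURKA, AURKB, BIRC5, CDC20, UBE2C, CENPA, CENPE, NDC80, NUF2, KIF18A, KIF23, ASPM, DLGAP5 and PRC1. AURKA was 0.000183 with quantile normalization again, 0.025 in the added fit, and between -0.121 and 0.0196 with 1 array left out. Such ranges were -0.083 to 0.0631 for AURKB (-0.0865 in the added fit), -0.112 to 0.302 for BIRC5, -0.161 to 0.00969 for CDC20 and -0.00587 to 0.435 for UBE2C. The causes were not tested. The number of members with intervals within 1.5-fold, 32, became 24 when untreated replicate 2 was omitted. It became 25 on omitting CXCL12 replicate 2 and 27 on omitting untreated replicate 3.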
